A study of Mus musculus with 6 samples.

Results

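The genes described here encode the enzymes that set the phosphorylation of eIF2α in the mouse: the kinases Eif2ak1 (HRI), Eif2ak2 (PKR), Eif2ak3 (PERK) and Eif2ak4 (GCN2), and the regulatory subunits Ppp1r15a (GADD34) and Ppp1r15b (CReP) of the eIF2α phosphatase. They were chosen by name, as the known kinases of eIF2α and the known subunits that bring protein phosphatase 1 (PP1) to it, and make up 6 of the 24537 genes with deposited values. All 6 passed the filter on low values. The values are messenger RNA levels in murine brown adipocytes, obtained from an immortalized line of brown preadipocytes differentiated in culture for 6 days. The CTL group (3 libraries) received vehicle, and the 4CBA group (3 libraries) received 4 mM 4-chlorobenzoic acid, an inhibitor of COQ2 that blocks the synthesis of coenzyme Q (CoQ), the lipid that carries electrons between complexes of the respiratory chain. According to the sample labels both groups were treated from day 4 for 48 h with fresh medium after 24 h, whereas the methods of the paper give a shorter time, and which time these libraries hold was not settled here. The methods also say that independent replicates were pooled to make total RNA, and the scatter between libraries that enters every p-value may therefore be technical.

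The integrated stress response turns on the phosphorylation of the α subunit of eIF2, the factor that brings the initiator tRNA to the ribosome. HRI is activated by heme shortage and by mitochondrial stress, PKR by double-stranded RNA, PERK by unfolded protein in the endoplasmic reticulum and GCN2 by uncharged tRNA. Phosphorylated eIF2 holds on to its exchange factor eIF2B, which lowers general translation while a few mRNAs, among them that of ATF4, are translated more. GADD34 and CReP each recruit PP1 to remove the phosphate. CReP is the constitutive subunit, and GADD34 is made during stress as a target of ATF4 and CHOP and so closes a feedback loop. All kinases are regulated mainly as proteins, by dimerization and autophosphorylation, which an mRNA level does not measure.

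In 4CBA-treated cells the transcripts of both phosphatase subunits rose, Ppp1r15a by 10.5-fold and Ppp1r15b by 1.57-fold. Of the kinases, Eif2ak2 fell to a level 1.38-fold lower, Eif2ak4 rose by 1.28-fold, and Eif2ak1 and Eif2ak3 did not pass the test. In the libraries as deposited, 3 of the 6 transcripts were higher and 1 was lower at an adjusted p under 0.05 (limma on log2(RPKM + 1), Benjamini-Hochberg over 12659 genes). RPKM is the number of reads scaled for exon length and for library depth, and a log2 fold change on this scale understates the change of low transcripts. The same test called 38.4% of all tested genes higher and 30.0% lower, 68.4% in either direction, so passing it is not particular to these genes and the sizes below carry more than the calls. The median library level also differed by 0.108 on the log2 scale between the groups, with 4CBA libraries higher. After scaling libraries to the same median, 30.9% of genes were higher and 37.7% lower, and the share of calls that were higher went from 56.1% to 45.0%. With that scaling Eif2ak4 was no longer called, Eif2ak1 was called lower, and the family counted 2 higher and 2 lower.

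**Figure D1:**
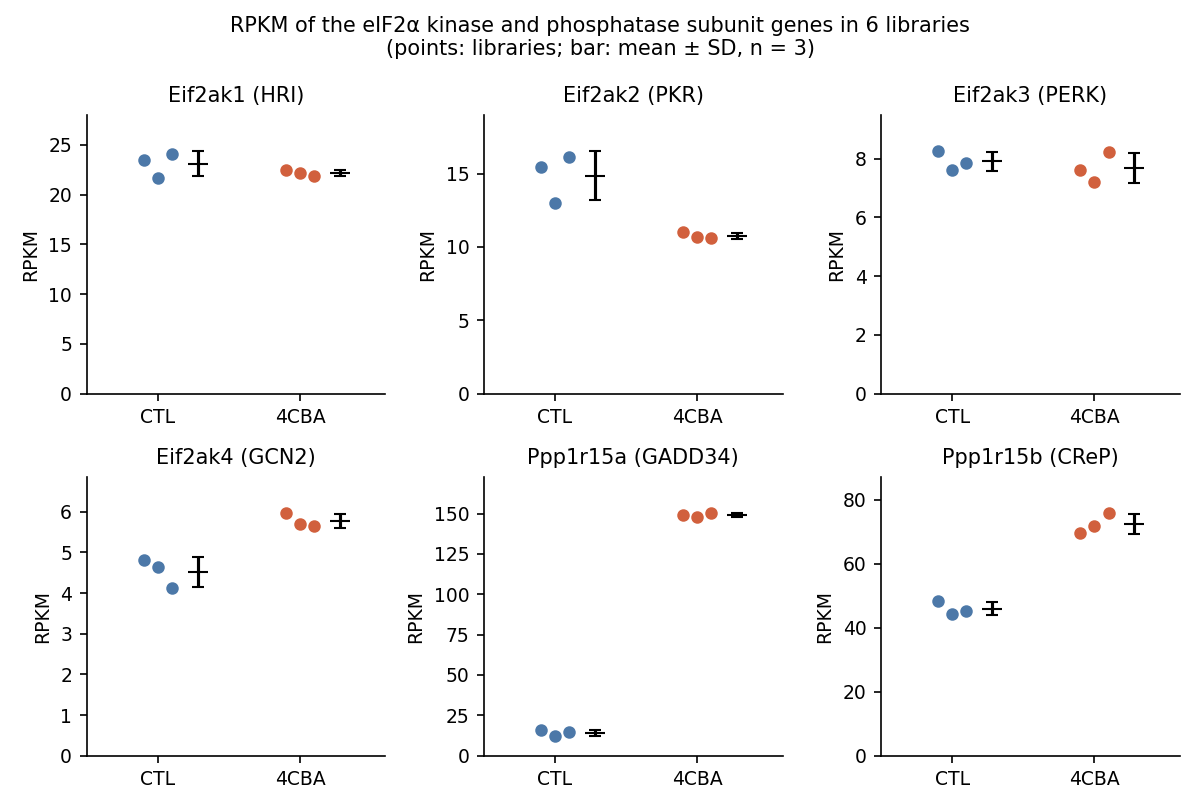
RPKM (vertical axes, each starting at 0) of the 6 genes in the 3 CTL (blue) and 3 4CBA (orange) libraries, with the mean ± SD beside the points. The groups stood apart for Eif2ak2, Eif2ak4, Ppp1r15a and Ppp1r15b and overlapped for Eif2ak1 and Eif2ak3, and Ppp1r15a went from 14.2 to 149.0.

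Ppp1r15a encodes GADD34, the stress-inducible subunit. Its RPKM was 15.7, 12.2 and 14.6 in CTL replicates 1, 2 and 3 and 148.9, 148.0 and 150.2 in the 4CBA replicates. The groups were far apart, with means of 14.2 ± 1.77 in CTL and 149.0 ± 1.14 in 4CBA (SD, n = 3). The log2 fold change was 3.31 (SE 0.0764, 95% interval 3.15 to 3.48, limma adjusted p = 1.9e-11), the 19th highest of the 12659 tested genes. It stayed between 3.22 and 3.38 when any 1 library was left out and was 3.21 with libraries scaled to the same median. The level rested on an estimated 322 to 4003 reads per library, so that counting error was small beside the change.

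The 250 bases before the start of Ppp1r15a are shown because this was the transcript that changed most, and because stress-regulated bZIP factors bind CRE-type sites. The stretch, from RefSeq on GRCm38.p6, is chr7:45526269-45526518 on the minus strand, with a full CRE (TGACGTCA) in capitals.
Ppp1r15a: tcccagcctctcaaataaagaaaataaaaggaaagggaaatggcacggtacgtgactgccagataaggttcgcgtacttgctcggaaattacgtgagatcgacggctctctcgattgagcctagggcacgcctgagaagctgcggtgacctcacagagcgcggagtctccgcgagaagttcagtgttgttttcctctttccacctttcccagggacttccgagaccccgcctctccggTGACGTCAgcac
The CRE lay 12 to 5 bases before the start and occurred in 1.79% of the 32851 RefSeq windows reaching from 250 bases before to 50 after a start, both strands searched. The same window held the core of an interferon-stimulated response element (ISRE; GAAANNGAA, in 8.56% of windows) 220 to 212 bases before the start and a TATAAA (13.6% of windows) 16 to 21 bases into the transcript. The letters TGATGNAA, common to C/EBP-ATF response elements and found in 3.97% of windows, were in none of the family's windows. Each match is a description of letters and shows no binding.

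Ppp1r15b encodes CReP, the subunit that is present without stress. Its RPKM was 48.3, 44.2 and 45.3 in the CTL libraries and 69.5, 71.6 and 75.7 in the 4CBA libraries. The lowest 4CBA library was well above the highest CTL library, with means of 45.9 ± 2.12 and 72.3 ± 3.16 (SD, n = 3). The log2 fold change was 0.64 (SE 0.0561, 95% interval 0.52 to 0.77, limma adjusted p = 9.54e-07) and 0.54 with libraries scaled to the same median. Both phosphatase subunits were thus higher under both scalings, by very different sizes. No window of Ppp1r15b was in the RefSeq table used here.

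Within each library the ratio of both subunits turned over. In CTL cells Ppp1r15a stood at 0.307 of the level of Ppp1r15b, and in 4CBA cells at 2.06 times it. The log2 ratio of Ppp1r15a to Ppp1r15b was -1.63, -1.86 and -1.63 in CTL and 1.10, 1.05 and 0.99 in 4CBA, a difference of 2.75 that no scaling of libraries alters. The groups did not overlap, and the exact two-sided permutation test gave p = 0.1, the smallest that 3 against 3 libraries allow, so this design could not reach 0.05 for any single value. Of the summed RPKM of the 2 subunits, Ppp1r15a took 23.5% in CTL and 67.4% in 4CBA, on average over libraries.

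Eif2ak2 encodes PKR, which senses double-stranded RNA and is itself an interferon-stimulated gene. Its RPKM was 15.5, 12.98 and 16.1 in CTL and 11.0, 10.7 and 10.6 in 4CBA. Every 4CBA library was below every CTL library, and the CTL libraries were the more scattered, at 14.9 ± 1.67 against 10.8 ± 0.222 (SD, n = 3). Eif2ak2 fell by 0.43 on the log2 scale (SE 0.0786, 95% interval -0.60 to -0.25, limma adjusted p = 4.56e-04). It was the one family member called lower under both scalings, with a log2 fold change of -0.53 once libraries had the same median, and over 13 alternatives the log2 fold change ran from -0.53 to -0.37 with adjusted p no higher than 0.00355. The estimated reads per library were 495 to 821.

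A 30-base stretch at the start of the Eif2ak2 transcript is shown because it holds the element by which interferon-regulated factors are known to act on such genes. It lies at chr17:78882540-78882569 on the minus strand of GRCm38.p6 (RefSeq), and the capitals mark a pair of overlapping matches to the ISRE core GAAANNGAA, at 19 to 27 and 25 to 33 bases into the transcript.
Eif2ak2: ggcggagtccgccggGAAAACGAAACAGAA
The ISRE core was in 8.56% of all windows and, of this family, in those of Eif2ak2 and Ppp1r15a, genes whose transcripts went in opposite directions.

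Genes for double-stranded RNA sensing and interferon responses were followed beside Eif2ak2. Of 30 listed genes 23 were tested, and 5 were higher, 10 lower and 8 not called, with a median log2 fold change of -0.17 against 0.06 over all tested genes. Over all tested genes 38.4% were higher and 30.0% lower. With libraries scaled to the same median, 5 of the list were higher and 13 lower, against 30.9% and 37.7% of all tested genes. Ifit1, which binds foreign RNA, fell by 0.95 on the log2 scale, whereas Ifi44 rose by 1.23 and Oasl1, a relative of the oligoadenylate synthetases, rose by 1.00. The list thus moved in both directions, and Ifi44 did so at a low level (mean RPKM 0.631 in CTL and 2.86 in 4CBA).

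Eif2ak4 encodes GCN2, the sensor of amino acid shortage, and was the lowest transcript of the family. Its RPKM was 4.82, 4.64 and 4.12 in CTL and 5.97, 5.69 and 5.65 in 4CBA. The groups did not overlap, with means of 4.52 ± 0.364 and 5.77 ± 0.170 (SD, n = 3). The log2 fold change was 0.30 (SE 0.0805, 95% interval 0.12 to 0.47, limma adjusted p = 0.00632). It was 0.19 with libraries scaled to the same median, where the call was lost (adjusted p = 0.0545, 95% interval 0.01 to 0.36), while the other alternatives kept it. With 190 to 337 estimated reads per library, this was also the member with the fewest reads.

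Eif2ak1 encodes HRI, the most abundant kinase transcript. Its RPKM was 23.5, 21.7 and 24.1 in CTL and 22.4, 22.2 and 21.9 in 4CBA. The 4CBA values all lay inside the CTL range, at 23.1 ± 1.27 and 22.2 ± 0.282 (SD, n = 3). The log2 fold change of -0.06 (95% interval -0.18 to 0.07) did not pass the test (limma adjusted p = 0.403), and with libraries scaled to the same median it was -0.16 and did (adjusted p = 0.0188, 95% interval -0.28 to -0.05). On the opposite strand Aimp2, a scaffold of the tRNA synthetase complex with an RPKM of 24.6 in CTL and 31.3 in 4CBA, covers 487 bases (11.3%) of the counted Eif2ak1 transcript. The sources do not say whether strand entered the counting, and the part of such reads in the Eif2ak1 values was not tested.

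Eif2ak3 encodes PERK, the kinase in the membrane of the endoplasmic reticulum. Its RPKM was 8.26, 7.63 and 7.87 in CTL and 7.61, 7.22 and 8.22 in 4CBA. The groups overlapped, with 4CBA replicate 3 inside the CTL range and the other 4CBA replicates below it, at 7.92 ± 0.320 and 7.68 ± 0.506 (SD, n = 3). The log2 fold change was -0.04 (95% interval -0.20 to 0.12, limma adjusted p = 0.638), and -0.15 with libraries scaled to the same median (95% interval -0.30 to 0.01, adjusted p = 0.0804).

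The 250 bases before the start of Eif2ak3 stood apart in the family by their CCAAT boxes, the letters bound by NF-Y, and are given for that reason. The stretch is chr6:70844265-70844514 on the plus strand of GRCm38.p6 (RefSeq), with the CCAAT boxes of both strands in capitals.
Eif2ak3: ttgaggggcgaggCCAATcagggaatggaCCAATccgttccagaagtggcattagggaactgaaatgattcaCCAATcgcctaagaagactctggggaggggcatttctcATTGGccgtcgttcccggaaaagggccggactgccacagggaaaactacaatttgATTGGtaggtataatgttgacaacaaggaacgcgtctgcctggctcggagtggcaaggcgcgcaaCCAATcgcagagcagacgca
It held 6 CCAAT boxes, from 237 to 16 bases before the start, against 1 for Eif2ak1 and none for the other members with a window. CCAAT occurred in 37.4% of all windows. The window of Eif2ak1 and 1 of the 2 windows of Eif2ak4 each held 3 GC boxes (GGGCGG, in 35.7% of windows), and that of Eif2ak3 held none.

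**Figure D2:**
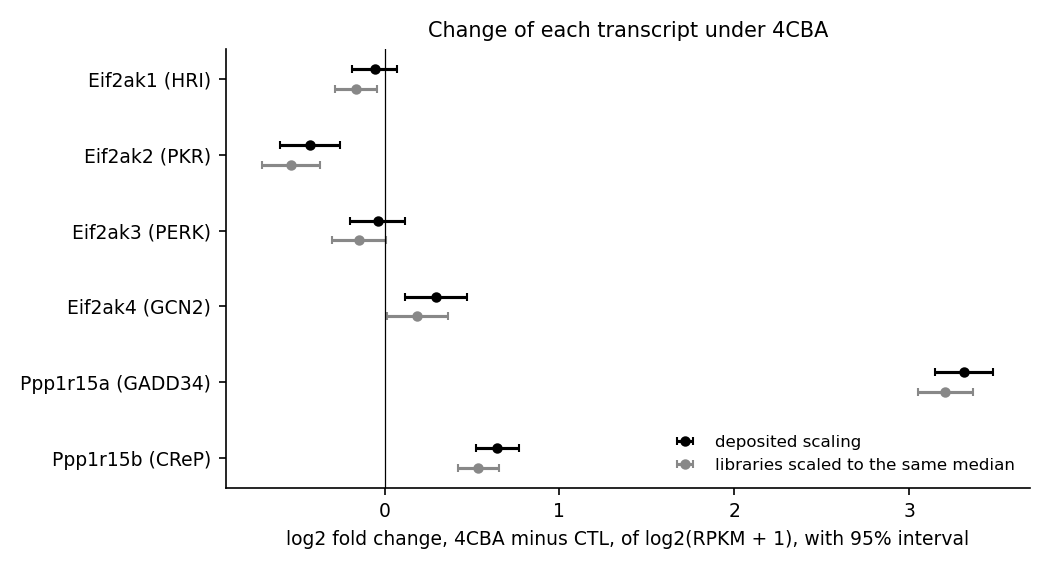
Log2 fold change (4CBA minus CTL, horizontal axis) of log2(RPKM + 1) with its 95% interval from limma, for the deposited scaling (black) and for libraries scaled to the same median (grey). Ppp1r15a at 3.31 lies far to the right of the other members, which lie between -0.43 and 0.64, and the grey interval of Eif2ak1 excludes 0 while the black one does not.

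By level per length, the CTL order was Ppp1r15b, Eif2ak1, Eif2ak2, Ppp1r15a, Eif2ak3 and Eif2ak4. In this order the ranges of Eif2ak2 and Ppp1r15a overlapped, and no other neighbours did. In 4CBA cells Ppp1r15a moved to the top of the order, 2.06 times above Ppp1r15b, the other members kept their sequence, and no neighbours overlapped. Among the kinases Eif2ak1 supplied 45.8% of the summed RPKM in CTL and 47.8% in 4CBA, Eif2ak2 29.4% and 23.2%, Eif2ak3 15.7% and 16.6%, and Eif2ak4 9.0% and 12.4%.

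The summed RPKM of the 4 kinases was 52.1, 46.9 and 52.2 in CTL and 47.0, 45.8 and 46.3 in 4CBA. CTL replicate 2 fell among the 4CBA values, and the means of 50.4 ± 3.02 and 46.4 ± 0.632 (SD, n = 3) differed by -4.04 (exact permutation p = 0.2). With libraries scaled to the same median the difference was -7.94 and the groups did not overlap (exact permutation p = 0.1). The summed RPKM of the 2 phosphatase subunits was 63.9, 56.4 and 59.9 in CTL and 218.4, 219.6 and 226.0 in 4CBA, 3.68-fold higher with no overlap (exact permutation p = 0.1). The ratio of kinase to phosphatase subunit transcripts accordingly went from 0.839 to 0.21, and its log2 value changed by -2.0 (from -0.25 ± 0.0506 to -2.25 ± 0.0357, SD, n = 3, exact permutation p = 0.1). Over these 4 single values the adjusted permutation p was 0.133 for the 3 that did not overlap and 0.2 for the kinase sum. Of all tested genes, 40.9% had every 4CBA library above every CTL library and 31.8% every one below, and of the family 3 and 1 of 6 did so.

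**Figure D3:**
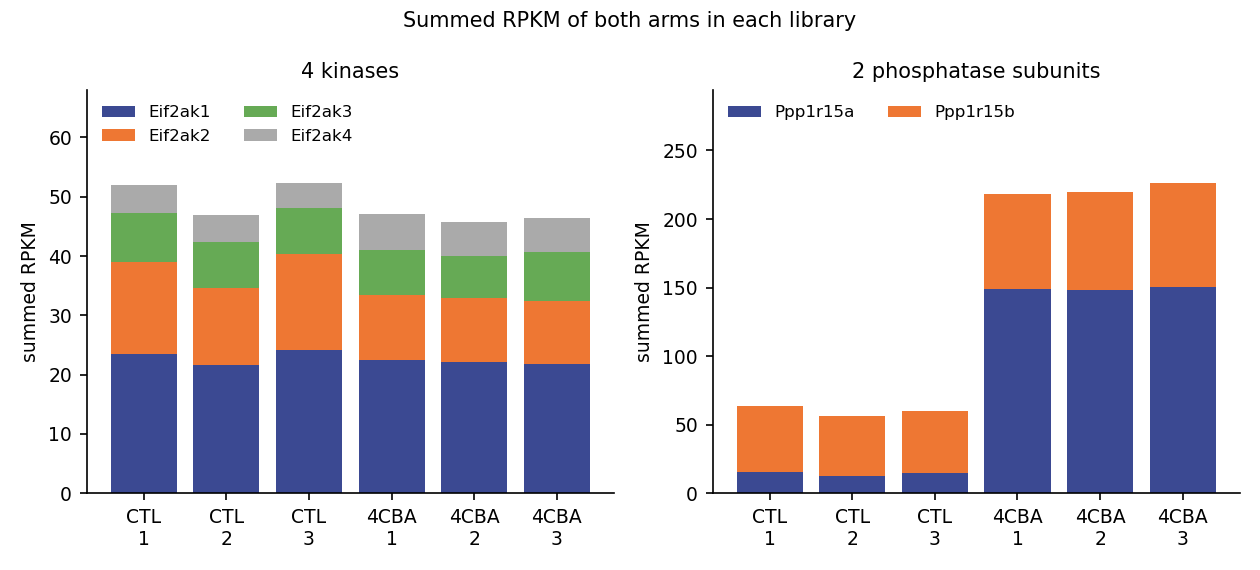
Summed RPKM (vertical axes, from 0) of the 4 kinase transcripts (left) and the 2 phosphatase subunit transcripts (right) in each library, stacked by gene. The kinase sum stayed between 45.8 and 52.2, and the phosphatase subunit sum went from 56.4 to 63.9 in CTL to 218.4 to 226.0 in 4CBA, most of the added height being Ppp1r15a.

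The core of eIF2 itself, the substrate, was not called in any subunit. The subunits are Eif2s1 (α, which carries the phosphorylated serine), Eif2s2 (β) and the γ subunits Eif2s3x and Eif2s3y. None of these 4 was called, with log2 fold changes of -0.04, 0.13, 0.05 and -0.12. Eif2s2 passed without 4CBA replicate 3 (0.23, limma adjusted p = 0.02). Eif2s3y passed with libraries scaled to the same median (-0.23, adjusted p = 0.00607), with the log2 values of the authors (-0.18, adjusted p = 0.0135) and without 4CBA replicate 2 (-0.17, adjusted p = 0.0489).

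The exchange factor eIF2B, the target that phosphorylated eIF2 inhibits, and eIF5, which triggers GTP hydrolysis on eIF2, were mostly higher. Of the 6 genes 5 were higher and 1 lower, with a median log2 fold change of 0.43 against 0.06 over all tested genes. Over all tested genes 38.4% were higher and 30.0% lower. Eif5 had RPKM of 55.1, 50.2 and 52.1 in CTL and 114.9, 117.6 and 106.0 in 4CBA and rose by 1.09 on the log2 scale (adjusted p = 1.32e-08). The subunits Eif2b2, Eif2b3, Eif2b4 and Eif2b5 rose by 0.69, 0.53, 0.33 and 0.30, and each was called under both scalings. Eif2b1, the α subunit of eIF2B, fell by 0.15 (28.8 ± 1.54 to 25.9 ± 0.70, SD, n = 3, limma adjusted p = 0.0417). That call was lost once CTL replicate 1 was left out (limma adjusted p = 0.157), and likewise for CTL replicate 2 (0.0862), 4CBA replicate 2 (0.109), 4CBA replicate 3 (0.089) and a fit of all genes unfiltered (0.0565).

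Of 10 genes whose proteins hold the kinases on or off, 4 were higher, 3 lower and 3 not called. Their median log2 fold change was 0.03, and these shares were near the 38.4% higher and 30.0% lower of all tested genes. With libraries scaled to the same median, 2 were higher and 3 lower. Around PERK, the luminal chaperone Hspa5 (BiP), which keeps PERK inactive, rose from 271.2 ± 2.95 to 666.1 ± 49.4 (SD, n = 3), a log2 fold change of 1.29. Dnajc3 (P58IPK), known as an inhibitor of PKR and PERK, rose by 0.55 (limma adjusted p = 3.45e-06). Hsp90b1 (GRP94), a chaperone of the same compartment, rose by 0.24 as deposited (adjusted p = 0.00648), a call lost with libraries scaled to the same median (0.14, adjusted p = 0.0922). Nck1, an adaptor that binds PERK and eIF2β, fell by 0.27 (adjusted p = 0.00729).

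Around PKR, Prkra (PACT), a protein activator of PKR, fell by 0.32 from 18.04 ± 0.744 to 14.2 ± 0.890 (SD, n = 3, limma adjusted p = 8.11e-04). Tarbp2 (TRBP), an inhibitor of PKR, had a log2 fold change of -0.10 and was not called. Around HRI, Oma1, the mitochondrial protease that releases the messenger DELE1, fell by 0.60 (5.43 ± 0.337 to 3.24 ± 0.218, SD, n = 3, limma adjusted p = 5.36e-05). Dele1, which binds HRI in the cytosol, rose by 0.22 as deposited (adjusted p = 0.0193). That call was lost with libraries scaled to the same median, with the log2 values of the authors, and without CTL replicate 2, CTL replicate 3 or 4CBA replicate 3, where the adjusted p was 0.184, 0.0658, 0.0802, 0.0693 and 0.0587 in that order. Around GCN2, Gcn1, the ribosome-bound activator, had a log2 fold change of 0.16 (adjusted p = 0.127) and passed only without 4CBA replicate 1 (0.28, adjusted p = 0.00446). Impact, which competes with GCN2 for GCN1, had a log2 fold change of -0.20 (adjusted p = 0.195) and passed with the log2 values of the authors (-0.26, adjusted p = 0.0422).

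The catalytic subunits that GADD34 and CReP recruit did not rise with them. Ppp1ca fell by 0.16 from 294.4 ± 2.55 to 263.5 ± 6.30 (SD, n = 3, limma adjusted p = 0.0102), and Ppp1cb fell by 0.25 from 92.6 ± 3.72 to 77.8 ± 4.99 (SD, n = 3, adjusted p = 0.00276). Ppp1cc had a log2 fold change of -0.09 and was not called. Other regulatory subunits of PP1 gave no common direction, and neither did all tested genes (38.4% higher and 30.0% lower). Of 27 such subunits tested, 12 were higher, 7 lower and 8 not called (median log2 fold change 0.13). With libraries scaled to the same median, 8 were higher and 8 lower. Among them Ppp1r13l (iASPP), an inhibitor of p53, rose by 1.00 and Ppp1r3f, a glycogen-targeting subunit, by 0.52. Ppp1r3c, which directs PP1 to glycogen, fell by 3.30 from 63.0 to 5.49, and Ppp1r1b (DARPP-32), an inhibitor of PP1, fell by 0.79. The rise of Ppp1r15a was larger than that of any of these 27 PP1 subunits.

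Ppp1r15a is a known target of ATF4 and CHOP. Genes of the ATF4 and CHOP pathway, among them Atf4 and Ddit3 (CHOP) themselves, were higher throughout. All 24 listed genes were higher under both scalings, with a median log2 fold change of 1.46 against 0.06 over all tested genes. Over all tested genes 38.4% were higher as deposited and 30.9% with libraries scaled to the same median. Fgf21, a hormone secreted by stressed tissue, rose by 5.35 from 3.97 ± 1.55 to 195.5 ± 12.6 (SD, n = 3, limma adjusted p = 2.91e-05), and Gdf15, another stress hormone, rose by 3.85 from 9.22 ± 1.10 to 145.6 ± 5.58 (SD, n = 3). The log2 fold change of 3.31 for Ppp1r15a was below these 2 and below that of Aldh1l2 (3.48), a mitochondrial folate enzyme named here after its value was seen. These genes were already known to be higher in these libraries when the list was drawn up, so the list is a description.

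**Figure D4:**
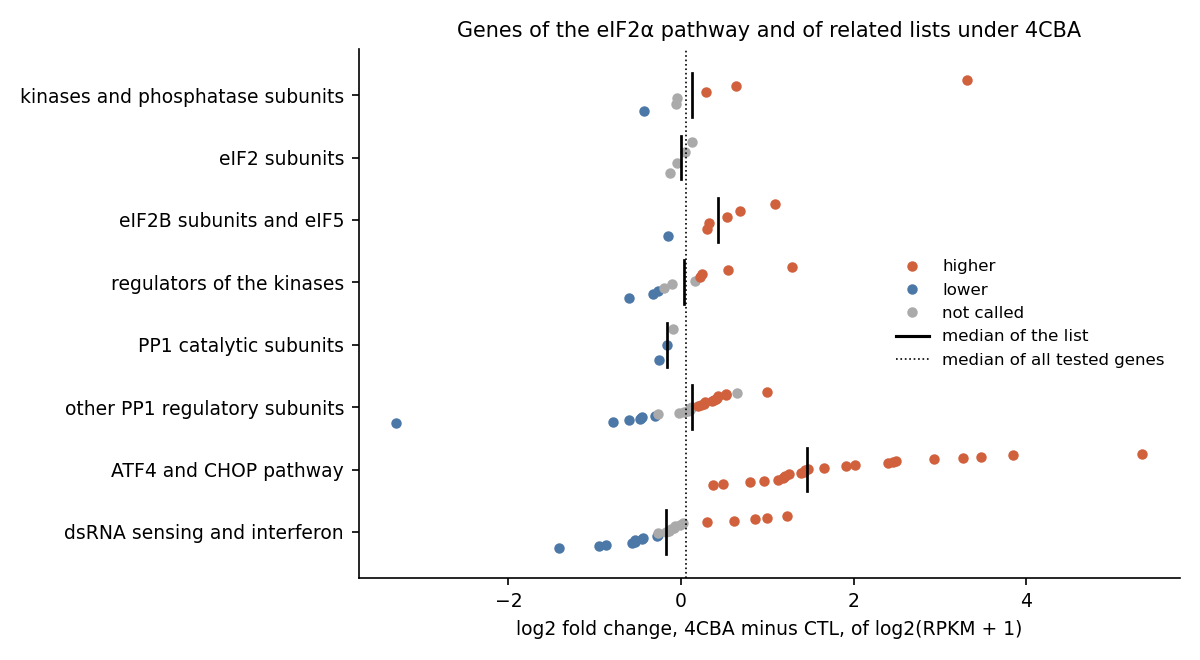
Log2 fold change (4CBA minus CTL, horizontal axis) of each tested gene of the family and of 7 related lists, coloured by call, with the median of each list (bar) and of all tested genes (dotted line, 0.06). All 24 ATF4 and CHOP genes lie to the right (median 1.46), and the 4 eIF2 subunits lie near 0. The PP1 catalytic subunits lie to the left of 0, and the other PP1 regulatory subunits and the interferon genes lie on both sides.

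The genes most like each member over the 6 libraries were sought among 8785 tested genes with a mean RPKM of at least 5, by the Euclidean distance of log2(RPKM + 1) less the CTL mean. For Ppp1r15a these were Prg4 (distance 0.0786), a secreted lubricating proteoglycan, and Arhgap33 (0.175), and only 10 genes lay within 0.5 of it. Within the same distance lay 1504 genes for Eif2ak2, 1754 for Ppp1r15b, 3129 for Eif2ak3, 3183 for Eif2ak1 and 3268 for Eif2ak4. The profile of Ppp1r15a was thus a rare one in these libraries and those of the other members were common. For Ppp1r15b the nearest were Tnrc6c (0.0341) and Cmtm4 (0.0459), for Eif2ak2 Cd109 (0.10), and for Eif2ak4 1700066M21Rik (0.0580) and Vezf1 (0.0648). For the kinases that did not pass the test they were Nucks1 (0.0115) and Cdca7l (0.0477) for Eif2ak1 and Gpatch8 (0.0304) and R3hdm4 (0.0397) for Eif2ak3. Likeness over 6 libraries of 2 groups mostly reflects a like fold change.

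In the GENCODE annotation of GRCm38 the genes lie on separate chromosomes. Eif2ak1 lies on chromosome 5 (143817788 to 143904251, plus strand), Eif2ak2 on chromosome 17 (78852564 to 78882573, minus), Eif2ak3 on chromosome 6 (70844515 to 70905245, plus) and Eif2ak4 on chromosome 2 (118388618 to 118475234, plus). Ppp1r15a lies on chromosome 7 (45522916 to 45526268, minus) and Ppp1r15b on chromosome 1 (133131143 to 133139783, plus). Opposite-strand exons cover 11 bases (0.471%) of the Ppp1r15a transcript, from Tulp2, whose RPKM was 0.155 in CTL and 0.85 in 4CBA, and none of that of Eif2ak4. Exons of Gm26637, Gm43292 and Gm26616, which had no values under these names, cover 174 bases of Eif2ak2, 485 of Eif2ak3 and 640 (11.4%) of Ppp1r15b.

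The state of the cells moved with the treatment. Ucp1, the uncoupling protein that defines brown adipocytes, had RPKM of 38.8, 33.7 and 31.5 in CTL and 1.90, 2.13 and 2.36 in 4CBA. Of 11 tested markers, some of brown adipocytes and some of adipocytes in general, 10 were lower and 1, Elovl3 (log2 fold change 1.37), higher. Adipoq, a general adipocyte marker, fell by 2.69. Over all tested genes 38.4% were higher and 30.0% lower. Of 9 tested preadipocyte and fibroblast markers 8 were lower, among them Dpt (fell by 3.00) and Dlk1 (fell by 2.39). Summed over the macrophage markers RPKM was 0.632 to 0.812 in CTL and 0.288 to 0.896 in 4CBA, with Adgre1, Ptprc and Itgam at 0 in every library, and over the endothelial markers 0.078 to 0.164 and 0.214 to 0.457, with Cdh5 and Tie1 at 0. Muscle markers summed to 6.10 to 6.26 in CTL and 10.2 to 11.6 in 4CBA, the increase being mostly Acta1 (log2 fold change 2.08), with Myod1, Myog, Myf5 and Myh1 at 0. In bulk RNA, fewer cells of a type and less RNA per cell cannot be told apart, and the part of these shifts in the values of the 6 genes was not tested. Estimated depth was 9430000 to 12300000 reads per library.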

How the data were processed

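Messenger RNA libraries of 3 CTL and 3 4CBA cultures were grouped by their labels. The authors mapped reads with STAR to mm10, summed exon reads of 1 RefSeq isoform for each gene with HOMER, and deposited them as RPKM. A second table deposited by the authors holds log2 values, probably a regularized log (the transform is not stated), with the p-values and fold changes of their DESeq2 comparison, which were not used. For the versions of these tools, and for whether strand was used in counting: not given in the sources used here. Its header names the RPKM table names 24 libraries, of which 6 are its columns.

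The 12659 genes that reached an RPKM of 0.5 in 3 or more libraries were tested with limma 3.58.1 in R 4.3.3 (trend, robust) on log2(RPKM + 1), two-sided, with Benjamini-Hochberg adjustment over all of them. Single values were compared by exact two-sided permutation tests over the 20 arrangements of the libraries. Folds are ratios of mean RPKM. Single reads give steps among low values, which served to estimate depth: 74.8% to 76.9% of low values came out within 0.1 of a whole number of reads, so RPKM was not turned back into counts. The share of a few genes in the reads affects every RPKM, hence the alternative with libraries scaled to the same median.

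The 6 genes and the 12 lists beside them were chosen with earlier results of these data known. Named were all 6 genes, all members of the lists of eIF2, of eIF2B and eIF5, of kinase regulators and of PP1 catalytic subunits, and Ucp1. Of each other list the 2 largest called changes in each direction were named if the higher group averaged an RPKM of 1 or more, and for each of the 6 genes its 2 nearest profiles. Some genes chosen by this rule are left out of the text. Other genes named from the lists, such as markers at 0, were chosen after their values were seen. Dele1 and Gcn1 stand in the deposited values under older symbols. Gcn1 was matched by its older symbol Gcn1l1, and Dele1 by its RefSeq identifier. Start-site windows come from RefSeq (5 of 6 genes matched), and some motifs were chosen after the sequences were seen. Tables and figures were made with Python 3.11.15, pandas 2.3.3, scipy 1.17.1 and matplotlib 3.10.9.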

Additional observations from a re-analysis of the deposited data

How the results depend on the processing

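Each of the 6 genes was refitted under 13 alternatives: libraries scaled to the same median, a smaller pseudocount (0.1), the filter dropped or raised to an RPKM of 5, limma without robust estimation, the log2 values of the authors, a replicate block, and 6 fits with 1 library missing. The direction of all 6 genes held under these alternatives. Of the 78 refits of these genes 76 also kept their side of the threshold, and both exceptions came from scaling libraries to the same median, with Eif2ak1 at -0.16 (adjusted p = 0.0188) and Eif2ak4 at 0.19 (adjusted p = 0.0545). Of 338 counts over lists 17 moved by over 1.5 times. With 1 library left out, the genes called higher numbered 4519 to 4727 and those lower 3522 to 3719, and log2 fold changes ran from -0.10 to -0.03 for Eif2ak1, -0.52 to -0.37 for Eif2ak2, -0.08 to -0.00127 for Eif2ak3, 0.24 to 0.33 for Eif2ak4, 3.22 to 3.38 for Ppp1r15a and 0.61 to 0.68 for Ppp1r15b. Deviations of same-numbered libraries had r of -0.0674, -0.0329 and -0.0274, and those of differently numbered CTL and 4CBA libraries -0.00411 to 0.0365. Such values cannot show whether the cultures were paired. The fit with the replicate block changed no call of the 6 genes (adjusted p = 0.0109 for Eif2ak4 and 0.00102 for Eif2ak2, limma). Depth limits Eif2ak4 most, at 190 to 337 estimated reads per library, and 3 libraries per group allow no single-value permutation p under 0.1.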
